A study of Mus musculus with 9 samples.

Results

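The Kruppel-like factors Klf2, Klf3, Klf4, Klf6, Klf7, Klf9, Klf10 and Klf13 were followed across the splenic B cell subsets of naive mice. These 8 genes were taken by symbol from a table of 24459 gene rows, all 8 were found once, and all 8 passed the minimum that left 11597 rows for testing. The subsets were FO (follicular B cells with high surface IgD, sorted as B220+IgMintCD21intCD23+CD93-), BDL (the same gate with low or absent IgD) and MZ (marginal zone B cells, B220+IgMhiCD21hiCD23-CD93-), each with 3 RNA-seq libraries, 9 in all. Cells came from untreated mice of 8 to 10 weeks, with the spleens of 5 mice pooled for each sort, so that a library stands for a pool and not for a single mouse. The strain is C57/BL6 in the sample labels and B10.PL in the paper, no genetic alteration is named for any subset, and which strain holds was not tested. Each library carries a date in its label, and each of the 3 dates gave 1 library of every subset. Libraries of a date share a replicate number here.

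Kruppel-like factors are zinc finger transcription factors that bind GC-rich and CACCC sequences. In lymphocytes Klf2 and Klf4 are known as brakes on proliferation, and Klf2 also drives genes of circulation and homing such as a receptor for sphingosine-1-phosphate. Loss of Klf2 in B cells is known to disturb the balance of follicular and marginal zone B cells, and Klf3, a repressor that recruits the corepressor CtBP, is itself a target of other family members.

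The stretches before the transcription starts of Klf2, Klf3 and Klf6 are shown because Klf2 and Klf3 were the members with the lowest MZ to FO ratio, whereas Klf6 had its lowest values in BDL. The sequences are RefSeq's on GRCm38.p6, run 5′ to 3′ on the gene's strand for 250 bases up to the start, and were matched by symbol for 7 of the 8 members. Klf10 had no entry. Capitals mark CACCC on either strand (GGGTG on the other) and a match to the MEF2 site. The Klf2 window lies at chr8:72318812-72319061 (+), the Klf3 window at chr5:64803271-64803520 (+) and the Klf6 window at chr13:5861239-5861488 (+).
Klf2: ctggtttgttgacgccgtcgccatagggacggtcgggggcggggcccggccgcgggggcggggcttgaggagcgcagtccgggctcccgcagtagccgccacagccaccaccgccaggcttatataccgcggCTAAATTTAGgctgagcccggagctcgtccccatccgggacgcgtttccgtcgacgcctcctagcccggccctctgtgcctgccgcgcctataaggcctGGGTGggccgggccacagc
Klf3: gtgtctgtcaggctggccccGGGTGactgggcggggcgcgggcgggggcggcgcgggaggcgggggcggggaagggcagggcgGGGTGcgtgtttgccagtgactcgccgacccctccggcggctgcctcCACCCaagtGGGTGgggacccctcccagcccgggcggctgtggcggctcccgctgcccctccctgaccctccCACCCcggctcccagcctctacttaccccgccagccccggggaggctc
Klf6: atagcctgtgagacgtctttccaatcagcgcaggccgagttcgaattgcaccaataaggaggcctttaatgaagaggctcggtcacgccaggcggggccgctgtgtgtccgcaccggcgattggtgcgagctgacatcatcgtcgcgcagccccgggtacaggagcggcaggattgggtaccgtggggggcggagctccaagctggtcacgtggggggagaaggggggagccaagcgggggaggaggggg
The Klf2 window held 1 CACCC, beginning 19 bases before the start, and 1 MEF2 match, beginning 118 bases before it. The Klf3 window held 5 CACCC matches and no MEF2 match, and the Klf6 window held neither motif. Of 32851 promoter windows of the same length, 52.0% held at least 1 CACCC, 0.667% held at least 5 and 2.92% held a MEF2 match. Among the other members, Klf7 had 3 CACCC matches, Klf9 and Klf13 had 1 each and Klf4 had none, and no further member had a MEF2 match. GC content ran from 59.2% (Klf7) to 78.4% (Klf3), against a median of 52.4% over all windows. The Sp-type motif GGGCGG was present in 32.7% of all windows, 6 times in Klf3, 4 times in Klf4 and not in Klf9. The motifs were searched on both strands, matches of different motifs may share bases, and a match is a description of the letters and not of binding.

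Values are FPKM, fragments scaled by transcript length and by the number of mapped fragments, as the authors deposited them. Differences are log2 fold changes of FPKM + 0.1 from limma, and a gene is said to be called where the Benjamini-Hochberg adjusted p was under 0.05 and the fold change at least 2. The table holds no counts, and from the steps between its low values the depth was estimated at about 54300000 to 73000000 fragments per library. This put Klf10, the lowest member, at about 115 fragments or more in each library and Klf2 at up to about 49657. The 8 B cell markers were high in every library, with summed FPKM of 3430 to 4860. The CD23 gene Fcer2a was at 389 to 538 FPKM in FO and BDL and at 26.0 to 34.5 FPKM in MZ. All 6 MZ markers were called higher in MZ than in FO, beside 5.54% of all rows tested. Cd9 (1.84) and Myof (1.29) were also called higher in BDL than in FO. The MZ marker Cr2 encodes CD21, which like CD23 was used in the sort. As the markers were chosen with earlier results of these data known, they are no independent check of the subsets. Summed myeloid markers (8 genes in the table) were highest in replicate 3 of each subset, at 9.49 FPKM in FO, 12.5 in BDL and 11.6 in MZ. In replicates 1 and 2 they were 2.81 and 2.68 in FO, 6.71 and 6.24 in BDL, and 3.64 and 4.10 in MZ. Of the 5 tested, 1, Emr1, was called higher in BDL than in FO (1.99, limma adjusted p = 0.000822) and than in MZ (2.19). Over all rows tested 1.64% and 3.47% were called higher in BDL than in FO and than in MZ. Summed NK cell markers (6 genes) were likewise highest in replicate 3, at 7.66 FPKM in FO, 6.19 in BDL and 12.4 in MZ. In MZ most of this sum was Prf1, at 5.39, 8.85 and 7.26 FPKM in replicates 1 to 3. Prf1 was called higher in MZ than in FO (2.24), so the MZ sum says little of the other NK cell markers. Summed T cell markers were 10.3 to 12.3 FPKM in FO, 21.1 to 27.0 in BDL and 9.30 to 16.0 in MZ. Of these 10 genes, Cd5 and Lck, which B cells can also express, were the 2 that passed the minimum, and the others, Cd3e among them, did not. Cd5 (1.8) and Lck (1.15) were called higher in BDL than in FO, and Lck (1.18) also than in MZ. Summed erythroid markers were 3.89 to 6.19 FPKM in FO, 16.7 to 19.1 in BDL and 4.66 to 7.92 in MZ. Of 3 tested, Hbb-bt (2.43) and Hbb-b1 (1.94) were called higher in BDL than in FO, and also than in MZ (2.25 and 1.4). The part of other cells in the values of the 8 genes was not tested beyond leaving out the libraries of replicate 3. That step keeps the higher myeloid and erythroid sums of BDL in replicates 1 and 2. In sorted bulk samples, fewer cells that express a gene and less RNA per cell cannot be told apart.

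Klf2 was the most abundant member in every library, and Klf6, Klf4, Klf13 and Klf3 followed at intermediate levels. In the GENCODE M1 annotation of mm9, Klf2 lies on chromosome 8 from 74842932 to 74845555, Klf3 on chromosome 5 from 65194628 to 65221368 and Klf6 on chromosome 13 from 5860735 to 5869639, all on the plus strand. FPKM is scaled per length, so levels can be set side by side between genes. By mean over the 9 libraries Klf2 ranked 193 among the 11597 rows tested and Klf6 ranked 419. Klf4, Klf13 and Klf3 ranked 1083, 1361 and 2297. Klf7, Klf9 and Klf10 were low, and 91.2% of the rows tested had a higher mean than Klf10. The coefficient of variation within a subset was 8.19% to 16.6% for Klf2, 20.4% to 26.0% for Klf3 and 2.16% to 13.3% for Klf7.

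**Figure D1:**
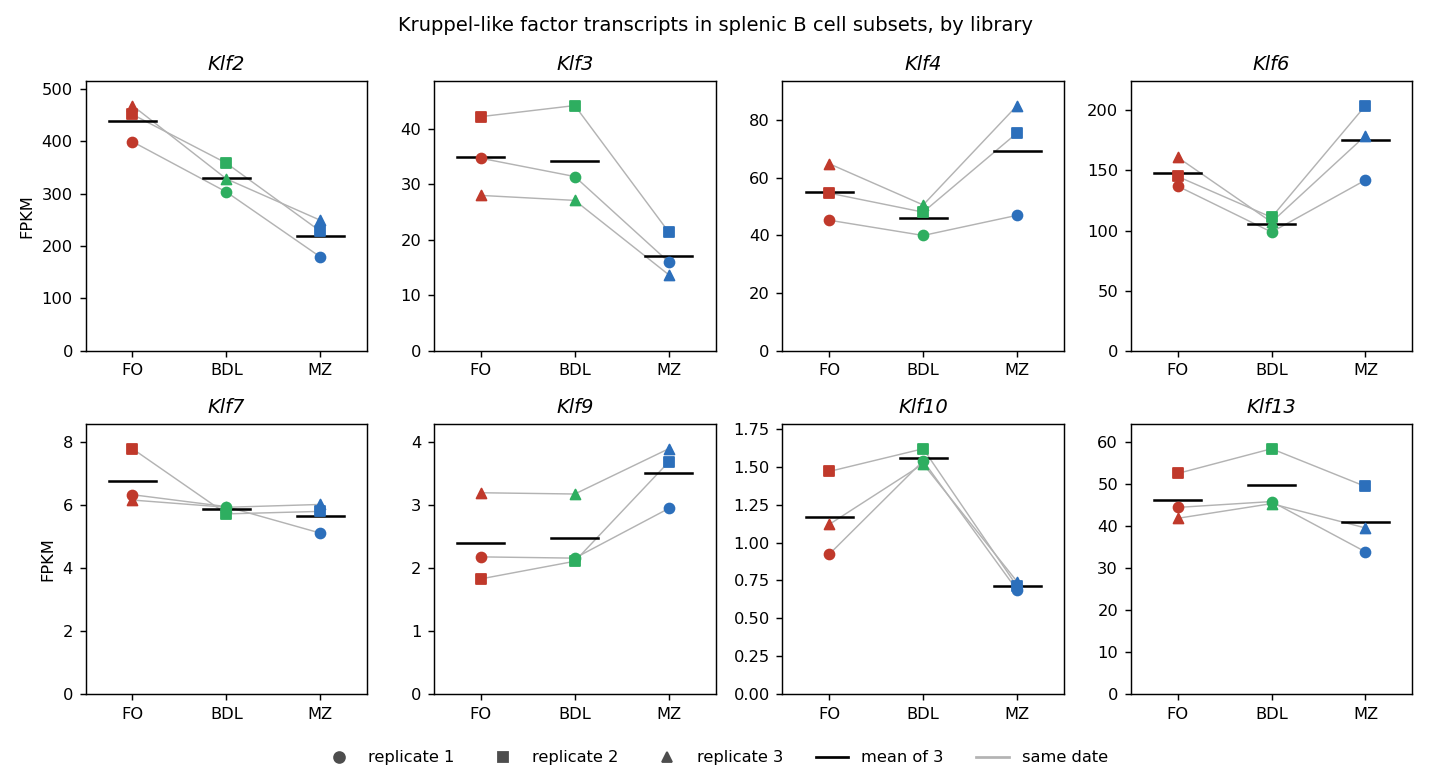
FPKM of the 8 genes by subset (y axes in FPKM from 0, a separate scale for each gene). Points are single libraries with the marker showing the replicate, black bars are means of 3 libraries and grey lines join libraries of 1 date. Klf2 steps down from FO over BDL to MZ with no overlap, while Klf6 is lowest in BDL.

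Klf2, the best known quiescence and homing factor of the family, was highest in FO, intermediate in BDL and lowest in MZ, with no overlap between any pair of subsets. Its FPKM was 399, 451 and 468 in FO replicates 1 to 3, 303, 358 and 328 in BDL, and 179, 228 and 249 in MZ. The mean was 439 ± 36.0 FPKM (SD, n = 3) in FO, 330 ± 27.6 in BDL and 219 ± 36.3 in MZ. On each of the 3 dates the order FO, BDL, MZ was the same. MZ had 0.498 times the FO level, a log2 fold change of -1.02 (95% interval -1.35 to -0.69, limma adjusted p = 0.00115). BDL stood above MZ by 0.60 on the log2 scale (0.27 to 0.93, limma adjusted p = 0.0159), below the fold change needed for a call. The step from FO to BDL was -0.41 (-0.74 to -0.08) and missed the threshold, with a limma adjusted p of 0.122. That p was 0.029 when the date was a block and 0.0456 with quantile normalization. Without the libraries of replicate 3 the BDL to MZ difference was 0.71 on the log2 scale, no smaller than with them, with a limma adjusted p of 0.0835 from 6 libraries, and that of MZ to FO stayed under 0.05 in all 21 alternatives. The MZ to FO fold change fell short of the minimum without FO replicate 2, FO replicate 3 or MZ replicate 1 and with upper quartile scaling, at most to -0.88 on the log2 scale.

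Klf3, a repressor of the same family, was close in FO and BDL and lower in MZ. FPKM was 34.7, 42.2 and 28.0 in FO, 31.4, 44.2 and 27.1 in BDL, and 16.0, 21.4 and 13.7 in MZ. All MZ libraries lay under all others, and the replicate 2 library was the highest and the replicate 3 library the lowest in each subset. The MZ to FO log2 fold change was -1.04 (-1.58 to -0.49, limma adjusted p = 0.0131). It lost the call without FO replicate 2 (limma adjusted p = 0.0572), without MZ replicate 3 (log2 fold change -0.89) and without the libraries of replicate 3 (-1.04, adjusted p = 0.0559). With a pseudocount of 1 and with quantile normalization the fold change fell just short of the minimum, at -0.9986 and -0.9985. BDL stood above MZ by 0.997 on the log2 scale (0.45 to 1.54, limma adjusted p = 0.0158), just short of the fold change minimum. Its adjusted p rose above 0.05, to at most 0.0653, without MZ replicate 1, without MZ replicate 3 or without the libraries of replicate 3. Between BDL and FO the difference was -0.04 with a wide interval, -0.59 to 0.51.

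Klf6, induced early by many stimuli in leukocytes, showed another order, with BDL lowest. FPKM was 137, 145 and 161 in FO, 98.7, 111 and 107 in BDL, and 142, 204 and 179 in MZ. Every BDL library was under every FO and MZ library, whereas FO and MZ overlapped. BDL had 0.602 times the MZ level, a log2 fold change of -0.72 (-1.04 to -0.40, limma adjusted p = 0.00621), which was lost only without the libraries of replicate 3, where the log2 fold change was -0.70 and the adjusted p 0.0968. Against FO the difference was -0.48 (-0.80 to -0.16) with a limma adjusted p of 0.0754. That p was 0.0241 with the date as a block and ranged from 0.0197 to 0.342 over 21 alternatives, 6 of them under 0.05. MZ and FO differed by 0.23 (-0.09 to 0.55, limma adjusted p = 0.266).

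Klf4, known to restrain B cell cycling, had FPKM of 45.3, 54.7 and 64.9 in FO, 40.0, 48.1 and 50.6 in BDL, and 47.0, 75.6 and 85.1 in MZ. The subsets overlapped in every pair, although BDL was lowest on each date. The MZ library of replicate 1 lay within the ranges of FO and BDL, and the FO library of replicate 1 lay within that of BDL. No pair passed the test. The log2 fold change was -0.54 for BDL over MZ (-1.07 to -0.01, limma adjusted p = 0.117), -0.24 for BDL over FO (-0.77 to 0.29) and 0.30 for MZ over FO (-0.23 to 0.83). The first of these had a limma adjusted p of 0.01 with the date as a block, of 0.0433 with quantile normalization and, at a log2 fold change of -0.80, of 0.0191 without MZ replicate 1. In the other 18 alternatives it missed the threshold.

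Klf10, a TGF-β-inducible repressor, was low in every library and was the member called between BDL and MZ. FPKM was 0.923, 1.47 and 1.12 in FO, 1.54, 1.62 and 1.52 in BDL, and 0.685, 0.711 and 0.742 in MZ. Every BDL library was above every FO library, and every FO library above every MZ library. BDL had 2.19 times the MZ level, a log2 fold change of 1.03 (0.65 to 1.41, limma adjusted p = 0.00255), which was called. The call was lost with a pseudocount of 1 and with upper quartile scaling, and without the libraries of replicate 3 the log2 fold change was 1.07 with an adjusted p of 0.0536. MZ was under FO by a log2 fold change of -0.62 (-1.01 to -0.24, limma adjusted p = 0.0257), which rose to as much as 0.145 without FO replicate 2, FO replicate 3, any MZ library or the libraries of replicate 3. BDL over FO was 0.41 (0.02 to 0.79, limma adjusted p = 0.18).

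Klf9, a glucocorticoid-responsive member, had FPKM of 2.18, 1.83 and 3.20 in FO, 2.16, 2.11 and 3.18 in BDL, and 2.95, 3.69 and 3.90 in MZ. MZ was highest on each date, but the FO and BDL libraries of replicate 3 reached above MZ replicate 1. MZ over FO was 0.56 (0.02 to 1.09, limma adjusted p = 0.117). That p was 0.0213 with the date as a block and 0.0393 without FO replicate 3, where the log2 fold change was 0.78. BDL over MZ was -0.50 (-1.03 to 0.03, limma adjusted p = 0.149, and 0.0291 with the block). BDL over FO was 0.06 with an interval of -0.47 to 0.59.

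Klf13, which regulates chemokine genes in lymphocytes, had FPKM of 44.5, 52.6 and 41.9 in FO, 45.9, 58.5 and 45.4 in BDL, and 33.9, 49.5 and 39.6 in MZ. All pairs of subsets overlapped, and BDL was highest and MZ lowest on each date. The log2 fold changes were 0.10 for BDL over FO (-0.28 to 0.48), 0.29 for BDL over MZ (-0.09 to 0.67) and -0.19 for MZ over FO (-0.57 to 0.20). Of these, BDL over MZ had a limma adjusted p of 0.233, and of 0.0262 with the date as a block.

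Klf7 differed between subset means by no more than 0.25 on the log2 scale. FPKM was 6.33, 7.79 and 6.16 in FO, 5.95, 5.72 and 5.93 in BDL, and 5.11, 5.80 and 6.02 in MZ. Every FO library was above every BDL and MZ library, although the lowest FO library was at 6.16 and the highest MZ library at 6.02. The log2 fold changes were -0.19 for BDL over FO (-0.44 to 0.05), 0.06 for BDL over MZ (-0.19 to 0.30) and -0.25 for MZ over FO (-0.50 to -0.01). None passed the test, although the limma adjusted p of MZ over FO, 0.124, was 0.0496 with quantile normalization.

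BDL and FO did not differ significantly in any of the 8 genes, either at the fold change minimum, where 1.91% of the rows tested were called, or by the limma adjusted p alone, where 7.73% were. Unadjusted limma p-values were under 0.05 for 3 of the 8. The share of all rows tested with such a p was not computed, here or for the lists below. Counts of unadjusted p-values therefore have no background to be read against. With the date as a block and no fold change minimum, 2 members (Klf2 and Klf6) were lower in BDL, against 4.93% of the rows tested. Klf2, Klf6 and Klf7 were lower in BDL with no overlap (10.3% of the rows tested) and Klf10 was higher with none (24.4%). The median log2 fold change of the 8 genes was -0.12 beside 0.05 over all rows tested.

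Between BDL and MZ, 1 member, Klf10, was called higher in BDL (3.47% of the rows tested were). By the limma adjusted p alone, Klf2, Klf3 and Klf10 were higher in BDL and Klf6 was lower, 4 of 8 in a comparison where 28.1% of the rows tested passed. With the date as a block 7 of 8 passed, with 42.7% of the rows tested, Klf4 and Klf9 lower in BDL and Klf13 higher besides those named, while Klf7 did not pass. Klf2, Klf3 and Klf10 were higher in BDL with no overlap (22.6% of the rows tested) and Klf6 was lower with none (16.4%). The median was 0.17 beside 0.06 over all rows.

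MZ was lower than FO for 2 members called, Klf2 and Klf3, in a comparison where 3.39% of the rows tested were called lower. By the limma adjusted p alone Klf10 joined them, 3 of 8 where 12.8% of the rows tested were lower. No member was called higher in MZ, where 5.54% of the rows tested were. Klf4, Klf6 and Klf9 were higher in MZ on each of the 3 dates, with limma adjusted p-values of 0.117 to 0.387. The share of all rows tested that were higher in MZ on each date was not computed. With the date as a block, Klf9 also passed by the adjusted p, in a comparison where 38.8% of the rows tested did. The libraries did not overlap for 4 members, all lower in MZ (22.5% of the rows tested). The median was -0.22 beside -0.01 over all rows. The 3 comparisons share libraries, so their values are not independent of each other.

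**Figure D2:**
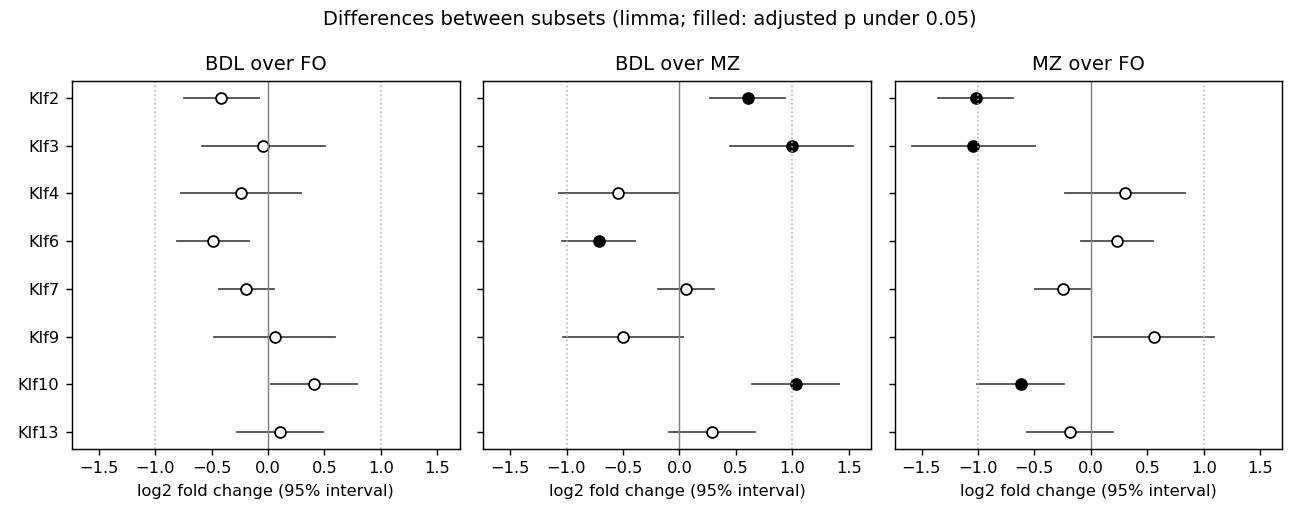
Log2 fold changes of the 8 genes in the 3 comparisons (x axis, limma on log2 FPKM + 0.1), with 95% intervals as bars. Filled points have an adjusted p under 0.05 and dotted lines mark a 2-fold change. No point is filled for BDL over FO, and Klf2, Klf3 and Klf10 are filled for both comparisons with MZ.

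The summed level of the 8 genes was highest in FO, and Klf2 took its smallest share of that sum in MZ. The sum was 670 to 774 FPKM in FO, 529 to 629 in BDL and 426 to 589 in MZ. FO did not overlap with either other subset (two-sided exact permutation p = 0.1 each, the smallest that 3 against 3 libraries allow), while BDL and MZ did (exact permutation p = 0.7). Klf2 made up 59.8% ± 0.493 (SD, n = 3) of it in FO, 57.3% ± 0.351 in BDL and 41.3% ± 2.26 in MZ. Klf6 made up 20.1%, 18.4% and 33.0%, and Klf4 made up 7.46%, 8.04% and 12.8%. The within-library ratio of Klf2 to Klf6 does not depend on the scaling of the libraries. It was 2.91 to 3.12 in FO, 3.06 to 3.24 in BDL and 1.12 to 1.39 in MZ. Thus MZ lay well under both other subsets with no overlap, with log2 differences of -1.25 to FO and 1.32 for BDL over MZ (exact permutation p = 0.1 each). FO and BDL overlapped, with a log2 difference of 0.07 (exact permutation p = 0.3). Klf2 over Klf4 was 7.21 to 8.80 in FO, 6.48 to 7.58 in BDL and 2.93 to 3.80 in MZ, with the same separation of MZ.

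**Figure D3:**
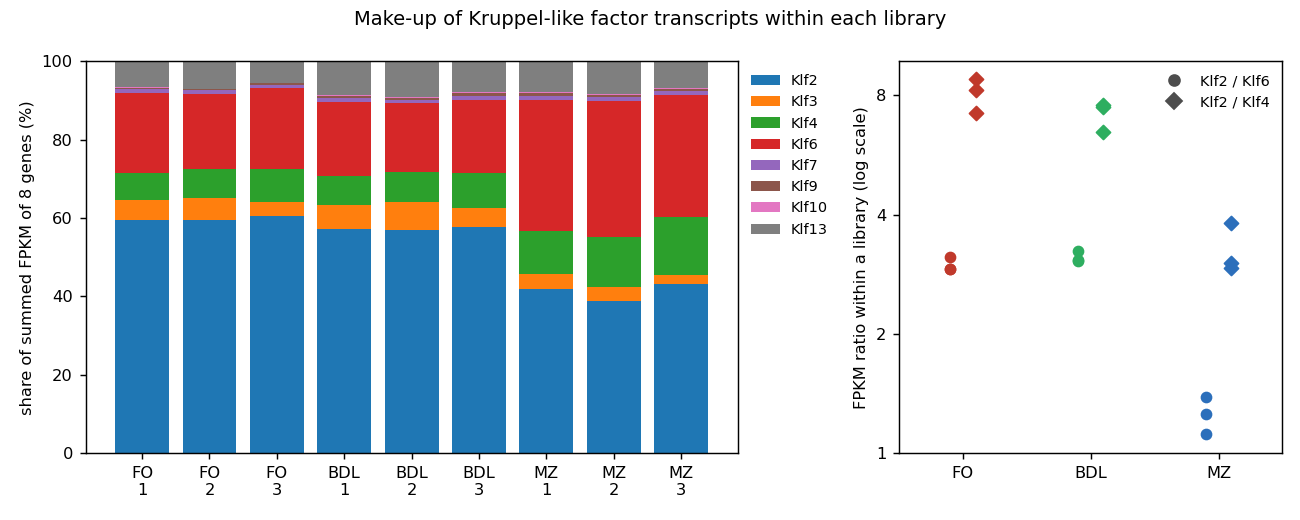
Left, share of each gene in the summed FPKM of the 8 genes (y axis, percent, bars stacked to 100 for each of the 9 libraries). Right, ratio of Klf2 to Klf6 (circles) and to Klf4 (diamonds) within each library on a log scale. The 3 MZ libraries have Klf2 to Klf6 ratios of 1.12 to 1.39, all below the 2.91 to 3.24 of the FO and BDL libraries.

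The libraries of 1 date were the lowest or the highest in all 3 subsets for some members, at shares not far from those of all rows tested. For Klf2, Klf3, Klf4 and Klf6 the same date was the lowest in all 3 subsets, replicate 1 for Klf2, Klf4 and Klf6 and replicate 3 for Klf3. This held for 4 of 8 members and for 35.5% of the rows tested. For Klf3, Klf4, Klf9 and Klf13, again 4 of 8, the same date was the highest in all 3 subsets, beside 37.0% of the rows tested. Replicate 3 of every subset also carried more myeloid and NK cell marker RNA, as given above, and the part of these cells in the levels of that date was not tested.

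The remaining family members were at low levels, none above 15.1 FPKM in any library. Of the other 9 Kruppel-like factors in the table, Klf8, Klf11, Klf12 and Klf16 were tested and limma called none in any comparison. Over all rows tested 1.91% were called between BDL and FO. In BDL 3.47% were called higher and 4.34% lower than in MZ, and in MZ 5.54% higher and 3.39% lower than in FO. Unadjusted p-values were under 0.05 for 0 of 4 in BDL over FO and for 3 of 4 in each comparison with MZ. Klf11 passed by the limma adjusted p alone, with -0.61 for MZ over FO (adjusted p = 0.0342) and 0.60 for BDL over MZ (adjusted p = 0.0357). By that rule 12.8% of all rows tested were lower in MZ than FO and 16.5% higher in BDL than MZ. Klf5, a factor better known from epithelium, was under the minimum but separated MZ from the rest. It was listed at 0.564, 0.655 and 0.484 FPKM in MZ and at no more than 0.0332 FPKM in FO and BDL. With no minimum, over 18518 rows, its log2 fold change was 2.42 for MZ over FO (limma adjusted p = 3.07e-05) and -2.47 for BDL over MZ (adjusted p = 3.41e-05). Of the 9 Sp factors, which share the zinc fingers and bind GC boxes, 4 were tested and limma called none, beside the shares of all rows given above. Unadjusted p-values under 0.05 numbered 1, 3 and 4 for BDL over FO, BDL over MZ and MZ over FO. By the adjusted p alone 2 of the 4 were lower in MZ than FO, Sp2 (-0.63, limma adjusted p = 0.00264) and Sp4 (-0.37, adjusted p = 0.0218), beside 12.8% of all rows tested. In BDL 2 of the 4 were higher than in MZ, Sp1 (0.56, adjusted p = 0.0292) and Sp2 (0.43, adjusted p = 0.0172), beside 16.5% of all rows tested. The row of Mir1192, a microRNA on chromosome 19 from 23223921 to 23224041 (mm9) inside Klf9 but outside its exons, was listed at 0 in BDL, in FO replicates 1 and 2, and at 7.98 FPKM in FO replicate 3. It was at 8.30, 4.23 and 7.13 FPKM in MZ, and Klf9 itself was detected in every library. The row is only 121 nt long, and whether its values come from the microRNA or from other RNA of this stretch was not tested.

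Of 11 upstream genes, the kinases of the ERK5 cascade, the MEF2 factors and the FoxO factors, 0 were called between BDL and FO by limma. Over all rows tested 1.91% were called there. In that comparison 0 of the 11 had an unadjusted p under 0.05. Mef2c, which acts downstream of ERK5 and of the B cell receptor, was called higher in BDL than MZ (1.14, limma adjusted p = 0.00211). Over all rows tested 3.47% were. Its FPKM was 70.7, 108 and 76.7 in BDL, 35.2, 45.1 and 34.6 in MZ, and 60.9, 71.4 and 72.2 in FO. All MZ libraries were under all others. The call was lost without BDL replicate 2, with quantile normalization, and without the libraries of replicate 3, where the log2 fold change was 1.13 and the adjusted p 0.0562. Mef2b, at 0.95 in the fit of all libraries (adjusted p = 0.00349), was called higher in BDL in the last of these (1.04, adjusted p = 0.0424), with quantile normalization, with a pseudocount of 0.01 and without MZ replicate 3. By the adjusted p alone, 4 of the 11 were lower in MZ than FO, beside 12.8% of all rows tested. The list median was -0.30 beside -0.01 over all rows. Of 16 cofactors and ubiquitin ligases 15 were tested and limma called none, beside the shares of all rows called that are given with the other Kruppel-like factors. By the adjusted p alone 4 were lower in MZ than FO, beside 12.8% of all rows tested. In BDL 4 were higher than in MZ, beside 16.5%. None differed between BDL and FO, beside 7.73% of all rows tested, and 3 had an unadjusted p under 0.05 there.

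Several genes of homing and tissue exit, some of them known Klf2 targets, were lower in MZ than in both follicular subsets. Of 9 listed, 8 were tested. In MZ 4 were called lower than in FO, Itgb7 (-2.88), Ccr7 (-1.77), S1pr4 (-1.67) and Ccr6 (-1.07), with limma adjusted p-values from 1.77e-06 to 0.00417. The list median was -0.66 beside -0.01 over all rows, of which 3.39% were called lower. Ccr7, the chemokine receptor that guides cells into T cell zones, had FPKM of 251, 251 and 323 in FO, 252, 280 and 375 in BDL, and 63.7, 74.9 and 108 in MZ. All MZ libraries lay under all others, while FO and BDL overlapped. S1pr1, an exit receptor and a known Klf2 target, was higher in MZ, with 155, 190 and 136 FPKM in MZ against 72.8 to 99.9 in FO and 82.7, 99.6 and 100 in BDL. Its log2 fold change was 0.92 for MZ over FO (limma adjusted p = 0.00395) and -0.76 for BDL over MZ (adjusted p = 0.0102), both short of the fold change minimum. Without the libraries of replicate 3, S1pr1 was called higher in MZ than FO (1.15, limma adjusted p = 0.0165). Between BDL and MZ, Itgb7 (2.1), Ccr7 (1.89) and S1pr4 (1.74) were called higher in BDL, beside 3.47% of all rows tested. Between BDL and FO 1 gene was called. Ccr6, a chemokine receptor of follicular B cells, was at 36.2, 38.2 and 34.9 FPKM in BDL and 87.6, 88.6 and 81.1 in FO, a log2 fold change of -1.23 (limma adjusted p = 0.000551). Itgb7, the gut homing integrin chain, was lower in BDL by a log2 fold change of -0.78 (adjusted p = 0.00821). Cd44, a receptor for hyaluronan, was higher in BDL by 0.56 (adjusted p = 0.0344). Over all rows tested 0.267% were called lower in BDL than FO, and by the adjusted p alone 1.68% were lower and 6.04% higher.

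**Figure D4:**
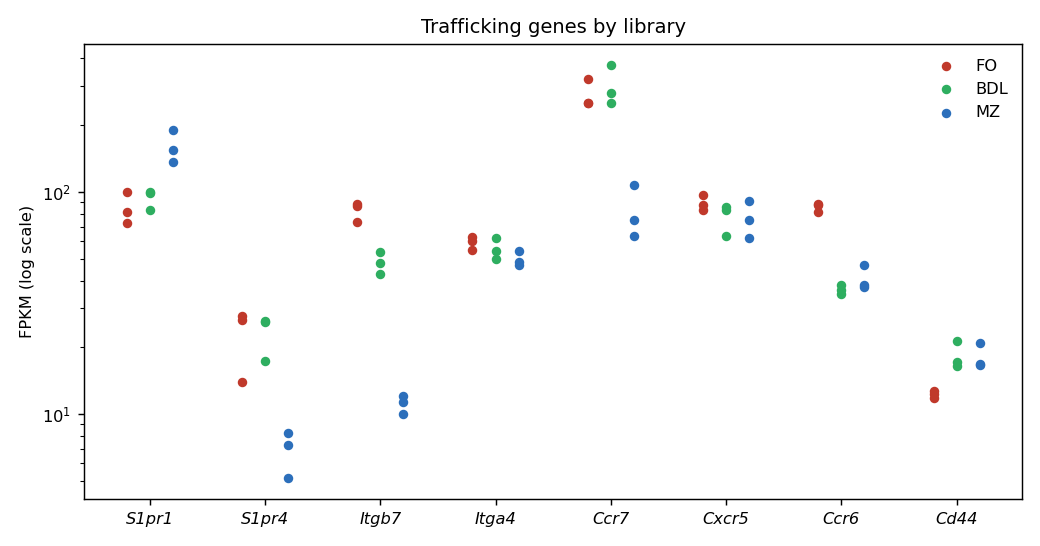
FPKM (y axis, log scale) of 8 homing and exit genes, 1 point per library, with FO in red, BDL in green and MZ in blue. Ccr7, Itgb7 and S1pr4 are lowest in MZ and S1pr1 is highest there, while for Ccr6 BDL lies with MZ, well under FO.

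Genes tied to quiescence outside the family included some that were higher and some that were lower in each comparison. Of 22 listed, limma called 0 between BDL and FO, beside 1.91% of all rows tested (5 had an unadjusted p under 0.05, and 1 was called lower in BDL with the date as a block). The count of called genes was 1, higher in BDL, without BDL replicate 3 and without the libraries of replicate 3. By the limma adjusted p alone 2 were higher in BDL, Pdcd4 (0.74) and Cdkn2c (0.90), and 1 was lower, Nfatc2 (-0.86). Over all rows tested 6.04% were higher and 1.68% lower. By the same rule 8 of the 22 were lower and 2 higher in MZ than FO, beside 12.8% and 14.3% of all rows tested. Between BDL and MZ 5 were higher and 1 lower in BDL, beside 16.5% and 11.6%. For BDL over FO the list median was -0.03 beside 0.05 over all rows. In MZ, Pdcd4, an inhibitor of translation, was called higher than in FO (1.01, limma adjusted p = 0.000611). The cell cycle inhibitors Cdkn1a (-2.23) and Cdkn2d (-2.21) and the T cell quiescence gene Slfn2 (-1.21) were called lower. Over all rows tested 5.54% were called higher and 3.39% lower in MZ. Slfn2 passed narrowly, with an adjusted p of 0.0365 that rose to 0.121 without FO replicate 1 and 0.117 without FO replicate 2, and without either library 2 genes of the list were called in place of 4. Cdkn2d stands on a pair of rows that differ in FO replicate 1 only, and both were called. Between BDL and MZ, Cdkn2d (2.23) and Slfn2 (1.64) were called higher in BDL and Nfatc2 (-1.16) lower, beside 3.47% and 4.34% of all rows tested.

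Several proliferation genes were higher in BDL and in MZ than in FO. Of 18 tested, 6 were called higher in BDL than FO and none lower, Mki67 (2.42), Top2a (1.96), Uhrf1 (1.74), Rrm2 (1.42), Ccnb1 (1.14) and Birc5 (1.08), beside 1.64% of all rows tested called higher. Without the libraries of replicate 3 the count was 3, and Rrm2 (1.48), Ccnb1 (1.12) and Birc5 (1.01) had log2 fold changes of much the same size with adjusted p-values of 0.0938 to 0.243. Birc5 passed less firmly than the others, with a limma adjusted p of 0.029 in the fit of all libraries. That p was also above 0.05 with a pseudocount of 1, without any FO library, and without BDL replicate 1 or BDL replicate 3, at 0.0643 to 0.109. Mki67 was at 0.517, 0.451 and 0.571 FPKM in FO, 2.99, 3.30 and 3.22 in BDL, and 5.10, 3.53 and 4.89 in MZ. No FO library came near the others. In MZ 8 were called higher than in FO, beside 5.54% of all rows tested, the same 6 with Tpx2 (1.41) and Ccnb2 (1.08). Between BDL and MZ 0 were called by limma, while 3.47% of all rows tested were called higher and 4.34% lower in BDL. In that comparison 10 had an unadjusted p under 0.05. By the adjusted p alone 5 were higher and 4 lower in BDL, beside 16.5% and 11.6% of all rows tested. Some markers of other B lineage cells were also higher in BDL than FO. Summed transitional B cell markers (6 genes, of which Igll1 was listed at 0 in every library) were 305 to 367 FPKM in FO, 457 to 695 in BDL and 361 to 463 in MZ. Most of this was Cd24a, and Cd93, which the gate selects against, was called higher in BDL (1.67), at 10.2 to 15.9 FPKM against 3.10 to 5.29 in FO. Of the germinal centre markers (7 genes) Rgs13 was called higher in BDL (3.85), at 3.42 to 6.37 FPKM against 0.172 to 0.268 in FO. Their sum was 31.7 to 37.9 FPKM in FO, 32.8 to 35.5 in BDL and 10.0 to 11.9 in MZ. Most of it was Bcl6, at 29.0 to 34.4 FPKM in FO, 25.7 to 27.5 in BDL and 6.84 to 8.94 in MZ. Of the plasma cell markers (6 genes in the table) Sdc1 was called higher in BDL (2.42). Their sum was 186 to 223 FPKM in FO, 128 to 207 in BDL and 224 to 296 in MZ. Most of it was Irf4, at 165 to 202 FPKM in FO, 101 to 180 in BDL and 200 to 270 in MZ. Both sums therefore say little of the other markers on their lists. The part of such cells in the levels of the proliferation genes and of the 8 members was not tested.

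Immediate early genes, a class that Klf4 and Klf6 are often counted with, included several that were lower in BDL than MZ. Of 18 tested, 6 were called lower in BDL, Atf3 (-3.70), Nr4a2 (-2.43), Egr2 (-1.75), Jun (-1.64), Nr4a1 (-1.26) and Fosb (-1.02), beside 4.34% of all rows tested. The count was 3 without MZ replicate 3 and 4 without BDL replicate 1 or BDL replicate 2. Nr4a1, a reporter of antigen receptor signalling, was at 285, 180 and 455 FPKM in BDL, 517, 657 and 938 in MZ and 431, 473 and 681 in FO. BDL replicate 3 overlapped with FO and not with MZ, and the limma adjusted p of 0.0327 for BDL over MZ was above 0.05 in 7 alternatives. Between BDL and FO 0 were called by limma, beside 1.91% of all rows tested, and 5 had an unadjusted p under 0.05. By the adjusted p alone 1, Egr2 (0.72, adjusted p = 0.00721), was higher in BDL, beside 6.04% of all rows tested. Between MZ and FO, Atf3 (4.11), Egr2 (2.47), Nr4a2 (1.94) and Jun (1.17) were called higher and Ier2 (-1.05) lower, beside 5.54% and 3.39% of all rows tested. This count of 5 was 3 without FO replicate 1, FO replicate 2, MZ replicate 1 or MZ replicate 2. Nr4a2 passed narrowly there, with a limma adjusted p of 0.0441. That p was 0.0652 with no minimum and rose to as much as 0.141 without single libraries. Its FPKM in MZ was 16.2, 13.5 and 40.7. Summed over 21 genes the FPKM was 2960 to 3420 in FO, 2370 to 2860 in BDL and 2920 to 4170 in MZ. BDL was thus below the other subsets for this sum, for Klf6, and on each date for Klf4. The part of a shared early gene response in the levels of Klf4 and Klf6 was not tested.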

How the data were processed

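The authors aligned the reads to mm9 with Tophat 2.1.0 and deposited FPKM values from Cufflinks (version and annotation not given in the sources used here). On strand and read ends the sources differ: a stranded kit with 2 files per sample in the paper, unstranded single-end sequencing in the labels. Sense and antisense reads may therefore not be told apart. Totals of 446033 to 517208 FPKM per library were left unscaled. The table holds no counts. Scaled by the estimated depth, 59.6% to 71.6% of the low values came within 0.1 of a whole fragment (20% by chance), so fragment numbers are approximate and no count test was run.

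After a minimum mean of 0.5 FPKM, limma 3.58.1 (R 4.3.3, eBayes with a trend) was run on log2(FPKM + 0.1), which understates changes of low genes, with all 9 libraries and the subset as the only term. P-values were adjusted over 11597 rows and measure the spread between these sorted pools. Ratios were compared by two-sided exact permutation tests. The fit was tested on simulated data.

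Libraries with the same replicate number share the date in their label, which gave the pairing. Their deviations from the subset means correlated at -0.0623 to 0.147 (BDL and FO), 0.1 to 0.244 (BDL and MZ) and 0.0077 to 0.0238 (MZ and FO), and the date was tried as a block. The other alternatives were pseudocounts, minimums, scalings, moderations, repeated symbols summed, the 6 libraries compared alone, an adjusted p alone and leaving out each library. Leaving out replicate 3 of every subset, and the block with an adjusted p alone, were chosen after seeing the data.

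The 8 genes and all lists were chosen with earlier results of these data known. The rule was to name all 8, genes of other lists that were called in a comparison, and for each of the 8 the 3 most correlated rows. Of the called genes of marker lists only some are named. The other Kruppel-like factors, Sp1, Sp2, Sp4, Mef2b, Cd44, S1pr1, Cdkn2c, Cd3e, Cd24a, Igll1 and Mir1192 fall outside this rule and were chosen after their values were seen. A few genes that meet the rule are not reported here and were left out of the lists and their counts. No coordinates were converted between builds.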

Additional observations from a re-analysis of the deposited data

How the results depend on the processing

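Calls on the 8 genes rest on few libraries and lie near the fold change minimum. With the date as a replicate block the counts stayed at 0 for BDL over FO, 1 for BDL over MZ and 2 for MZ over FO, and for the 8 genes the block changed no other call by the adjusted p than those given beside them. With the block and an adjusted p alone they were 2, 7 and 4. For BDL over MZ the count was 2 with a pseudocount of 0.01, 0 with a pseudocount of 1, with upper quartile scaling and without the libraries of replicate 3, and 4 by the adjusted p alone. Leaving out single libraries gave 1 to 2. For MZ over FO it was 1 with a pseudocount of 1, with quantile normalization and without the libraries of replicate 3 (Klf2), and with upper quartile scaling (Klf3). Leaving out single libraries gave 0 to 2, with 0 without FO replicate 2, and 1 without FO replicate 3, MZ replicate 1 or MZ replicate 3. Fewer libraries leave fewer degrees of freedom, and the cause of the other shifts was not tested. Log2 fold changes changed sign only where they were near 0 and not called. For BDL over FO, leaving out single libraries gave -0.24 to 0.113 for Klf3, -0.12 to 0.28 for Klf9 and -0.015 to 0.20 for Klf13, and Klf9 was -0.013 with upper quartile scaling. For BDL over MZ, Klf7 was -0.0107 to 0.10 without single libraries and -0.045 with upper quartile scaling.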

Other observations

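Each of the 8 genes was set beside every other row tested by the Pearson correlation of log2(FPKM + 0.1) over the 9 libraries, as a description with no test. The libraries form 3 subsets and 3 dates, which all these rows share, and the closest of 11596 rows will have a high value in any case. Klf2 was closest to the Sp-type factor Sp2 (r = 0.989), whose mean FPKM was 21.1 in FO, 18.4 in BDL and 13.7 in MZ, followed by the cofilin phosphatase Ssh1 (0.978) and Stat3 (0.976). Klf3 was closest to Rhof (0.991), Ceacam1 (0.991) and the homeobox gene Hhex (0.99), whose mean FPKM was 55.0, 61.0 and 23.7 in FO, BDL and MZ.

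Klf4 was closest to the antiproliferative gene Tob2 (0.976), then Txnrd1 (0.95) and the early activation marker Cd69 (0.932), with mean FPKM of Cd69 at 208 in FO, 172 in BDL and 230 in MZ. Klf6 was closest to the stress-induced phosphatase subunit Ppp1r15a (0.983), at 282, 156 and 406 FPKM in FO, BDL and MZ, then Traf4 (0.971) and Ptk2 (0.964). Klf4 and Klf6 had an r of 0.851 with each other and Klf2 and Klf3 one of 0.78.

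Klf10 was closest to the nucleoporin genes Nup107 (0.975) and Nup205 (0.975) and to AI848285 (0.971), which had a mean FPKM of 3.31 in FO, 6.75 in BDL and 1.01 in MZ. Klf13 was closest to the chromatin remodelling gene Arid1b (0.969), Ap2a2 (0.966) and the myeloid and B cell factor Spi1 (0.961). Klf9 was closest to Gm7334 (0.957), Tm2d2 (0.941) and Atl2 (0.94), and Klf7 to Epg5 (0.896), Lrch3 (0.876) and Ptger1 (0.869), the lowest set of values among the 8.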
